A study of Mus musculus with 32 samples.

Results

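The genes described here are 10 imprinted genes that govern growth before and shortly after birth: Igf2, H19, Dlk1, Meg3, Mest, Peg3, Plagl1, Cdkn1c, Grb10 and Ndn. They were taken as a list, each gene read through its brightest probe set (by mean signal over the 32 arrays), and all 10 passed the filter on low signals, among 13346 genes tested. An imprinted gene is read from the copy of 1 parent, and many such genes form a network that is active in fetal tissues and is switched down as juvenile growth slows. Within it, Igf2, Dlk1, Mest, Peg3, Plagl1 and Ndn are read from the father's copy. H19, Meg3 and Cdkn1c are read from the mother's copy, and Grb10 is so outside the brain. The arrays measured total RNA of each gene and did not tell the parental copies apart.

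Lung RNA of mice that lacked glutathione reductase (Gsr-KO) and of mice that had it (Gsr-WT), strain C3H/HeN, was hybridised to Affymetrix Mouse 430_2 arrays. Glutathione reductase is the enzyme that regenerates reduced glutathione, a main antioxidant of cells. There were 32 arrays, each made from part of 1 animal's lung, in 10 groups. At embryonic day 19 (E19) there were 4 Gsr-KO and 4 Gsr-WT arrays, with no exposure. On days 5 and 56 after birth (P5 and P56), 3 arrays each came from Gsr-KO mice kept in hyperoxia, 3 from Gsr-KO mice kept in room air, 3 from Gsr-WT mice kept in hyperoxia and 3 from Gsr-WT mice kept in room air. Hyperoxia meant 100% oxygen from day 0 to day 5, together with the dams, so the P56 mice had been in room air since day 5. The labels do not say how the Gsr allele was disrupted, whether litters were shared or which sex the animals were. The comparisons address how the fall of these genes after birth differed by genotype and by oxygen.

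Gsr read 138 to 257 units on the 16 Gsr-KO arrays and 498 to 1541 units on the 16 Gsr-WT arrays, without overlap. Of 13 defining lung markers found, 12 or 13 lay above the median of all values, 100.4 units, on every array. The total signal per array ran from 31172678 to 35272173 units, and precision is set by how few arrays a group has. Some arrays stood apart. The library labelled Gsr-KO P5 air replicate 1 was closest to a Gsr-KO E19 array, with a correlation of 0.976 over genes, against 0.961 with the best array of its own group. In turn, Gsr-KO E19 replicates 2 and 4 and Gsr-WT E19 replicate 1 were closest to it (0.9762, 0.9738 and 0.9736). At P5, 2 more libraries went against their oxygen label. Cdkn1a, a p53 target known to be induced by hyperoxia, read 6352 units in the library labelled Gsr-WT P5 air replicate 3, against 848 and 840 units on the other air arrays and 6329 to 8589 units in Gsr-WT hyperoxia. It read 1296 units in the library labelled Gsr-KO P5 hyperoxia replicate 1, against 8384 and 8155 units on the other hyperoxia arrays. Each of these 2 was also closest to an array of the opposite oxygen group, with correlations of 0.986 and 0.9819, against 0.9811 and 0.9815 with the best array of its own group. The labels were kept, and values at P5 are also given without these 3 P5 libraries where they matter. Gsr-KO E19 replicate 1 and Gsr-WT P56 hyperoxia replicate 2 had log2 ratios of 3' to 5' control signals of 4.37 and 2.84, against -0.065 to 1.555 on the other arrays. Liver markers were far from even between the genotypes around birth. Their 20 signals summed to 1010 to 12167 units in Gsr-KO E19 and to 3551 to 290031 units in Gsr-WT E19, with 3 of the Gsr-WT arrays at 141642 units or above. At P5 in air they summed to 1163 to 4881 units in Gsr-KO and to 25351 to 83390 units in Gsr-WT. The plot of marker levels shows these lists for each array.

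**Figure D1:**
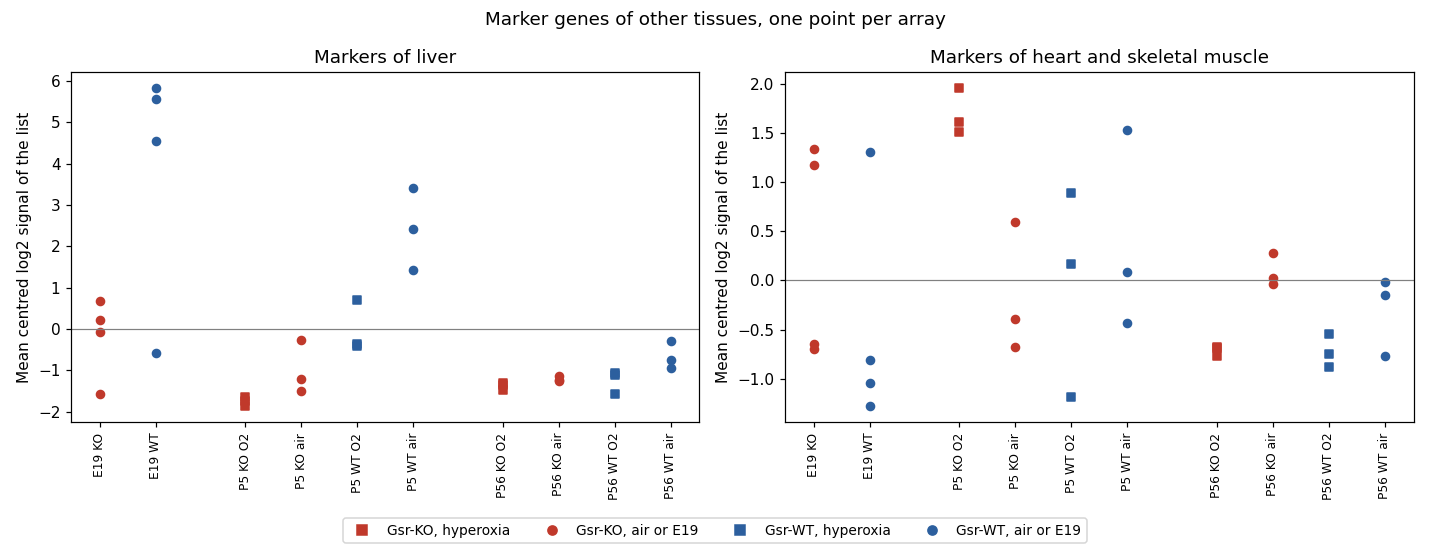
Mean centred log2 signal of the liver markers (left) and of the heart and skeletal muscle markers (right) on each array, in 10 groups by age, genotype and oxygen (O2, hyperoxia). The liver level of 3 of 4 Gsr-WT E19 arrays lies between 4.54 and 5.83, and that of all 4 Gsr-KO E19 arrays between -1.57 and 0.68.

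Sequences around the starts of 4 genes follow with CG pairs marked, because imprinting is carried by methylation of C in such pairs. Methylation was not measured, and whether these windows carry the imprint was not tested. Dlk1 kept the least signal at P56, Igf2 is the growth factor of the set, Grb10 was lower in Gsr-KO at E19, and Peg3 had its called fall after P5. They are RefSeq sequences on GRCm38.p6 from 250 bases before to 50 after an annotated start, with every CG pair in capitals. The Dlk1 window is chr12:109452573-109452872, plus strand, with 9 CG pairs. The Igf2 window is chr7:142658755-142659054, minus strand, with 24 pairs, the most of the 4 Igf2 starts annotated. The Grb10 window is chr11:12037371-12037670, minus strand, with 45 pairs, at percentile 98.2 of all windows. The other Grb10 start annotated has 9 pairs, at percentile 55.4. The Peg3 window is chr7:6730370-6730669, minus strand, with 13 pairs.
Dlk1: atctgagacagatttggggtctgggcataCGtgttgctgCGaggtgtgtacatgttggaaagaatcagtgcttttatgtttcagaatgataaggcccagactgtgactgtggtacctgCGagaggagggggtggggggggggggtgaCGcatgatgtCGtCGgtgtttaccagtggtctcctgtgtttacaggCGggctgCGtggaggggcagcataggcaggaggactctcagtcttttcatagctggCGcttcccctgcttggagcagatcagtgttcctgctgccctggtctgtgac
Igf2: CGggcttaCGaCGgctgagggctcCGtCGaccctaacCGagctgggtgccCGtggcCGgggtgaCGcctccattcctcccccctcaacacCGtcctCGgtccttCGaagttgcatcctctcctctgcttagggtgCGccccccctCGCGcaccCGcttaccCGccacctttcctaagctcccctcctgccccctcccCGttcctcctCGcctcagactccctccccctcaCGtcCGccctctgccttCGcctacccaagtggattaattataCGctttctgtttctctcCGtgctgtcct
Grb10: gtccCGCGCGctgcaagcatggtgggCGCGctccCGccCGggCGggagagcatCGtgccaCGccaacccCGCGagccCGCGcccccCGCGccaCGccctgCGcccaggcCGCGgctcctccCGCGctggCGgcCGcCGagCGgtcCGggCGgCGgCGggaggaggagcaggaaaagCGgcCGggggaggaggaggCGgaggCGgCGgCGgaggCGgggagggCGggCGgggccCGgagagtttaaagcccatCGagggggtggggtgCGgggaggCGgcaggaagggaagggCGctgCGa
Peg3: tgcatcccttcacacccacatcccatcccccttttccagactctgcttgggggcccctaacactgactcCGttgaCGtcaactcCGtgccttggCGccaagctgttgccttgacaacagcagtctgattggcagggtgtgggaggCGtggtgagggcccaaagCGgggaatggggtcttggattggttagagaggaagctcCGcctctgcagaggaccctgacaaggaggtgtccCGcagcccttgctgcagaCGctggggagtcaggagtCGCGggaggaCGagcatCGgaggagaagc

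Windows were listed for 8 of the 10 members, 15 in all, and the median over 32851 windows of all genes was 7 CG pairs. The letters GGGGCCCC, the core of the known Plagl1 binding motif, which read the same on both strands, occurred in 1 of the 15 windows, that of Peg3, from base 50. They occurred in 1.08% of all windows. TATAAA, searched on both strands, occurred in 1 of the 15, a window of Meg3, and in 13.62% of all. These matches describe letters in the windows and nothing of what binds there.

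H19 was read through its only probe set, which the annotation gives to both H19 and miR-675, a microRNA cut from H19 RNA, so both cannot be separated and the signal is called H19 here. The mature forms lie within H19 on chromosome 7, minus strand, of GRCm38.p6, at chr7:142577112-142577133 and chr7:142577078-142577099, and are shown with the seed, bases 2 to 8, in capitals. The seeds differ. The arrays did not measure the mature forms.
miR-675-5p: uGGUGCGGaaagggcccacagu
miR-675-3p: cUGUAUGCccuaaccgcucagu

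All 10 genes were lower in the adult lung than at P5, and 9 of them stepped down from E19 over P5 to P56 in their group means. At P56 the mean signal of Dlk1 was 0.38% to 1.08% of the E19 mean of the same genotype, over the 4 P56 groups, that of H19 1.74% to 5.88% and that of Igf2 3.14% to 8.15%. Meg3 stood at 5.41% to 8.53%, Mest at 7.67% to 10.6%, Peg3 at 11.7% to 13.6% and Cdkn1c at 11.8% to 18.4%. Grb10 kept 17.0% to 20.6%, Plagl1 18.4% to 42.8% and Ndn 60.4% to 68.2%. Ndn was the exception in shape, being highest at P5. In whole lung, fewer cells of a type and less RNA per cell cannot be told apart.

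**Figure D2:**
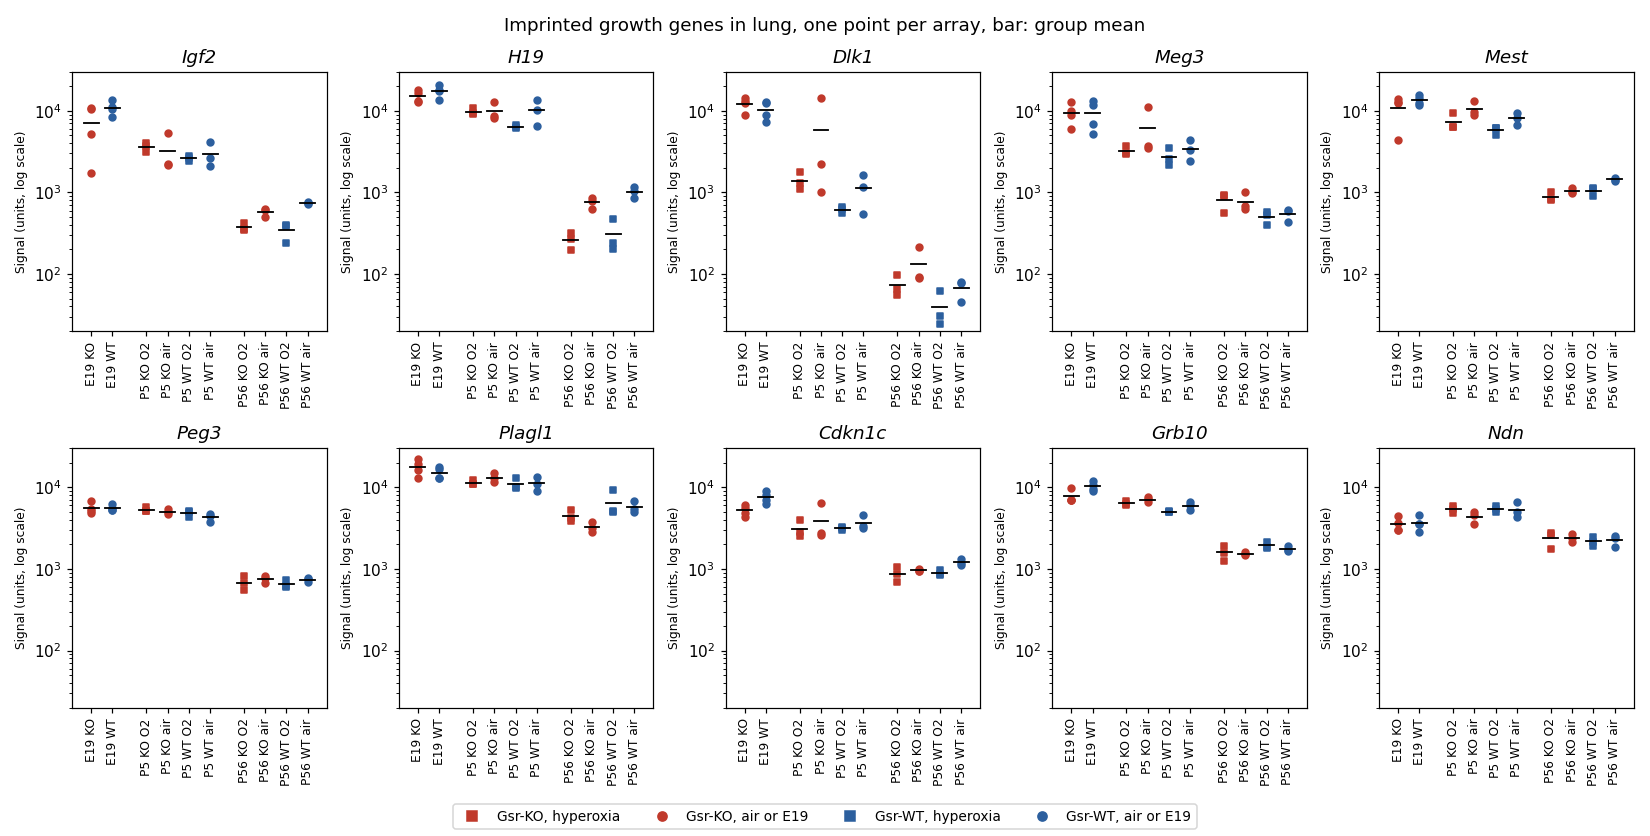
Signal of each of the 10 genes on every array (points, log axis) with group means (bars), in 10 groups by age, genotype and oxygen (O2, hyperoxia). Dlk1 spans 24.6 to 14339 units, the low end at P56 and the high end at E19, and 1 Gsr-KO P5 air array reads 14245 units.

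The first comparison asks how far the genes had fallen 5 days after birth in room air. In Gsr-WT lungs 8 of the 10 members were called, at a limma adjusted p under 0.05 over all genes. Dlk1, Igf2, Meg3, Cdkn1c, H19, Grb10 and Mest were lower and Ndn was higher at P5 than at E19. Of all genes, 6.25% were called lower in this comparison, where 7 of 10 members were. The median change was -0.81 over the members and 0.01 over all genes (log2).

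Dlk1, which codes for a membrane protein of the NOTCH ligand family found on immature cells, read 1642, 1172 and 536 units at P5, against 12476, 12666, 8982 and 7369 units at E19 in Gsr-WT. The groups did not overlap, and every P5 array lay well below every E19 array. The log2 change was -3.29 (SE 0.51, limma adjusted p = 0.000116). Meg3, a long noncoding RNA of the same imprinted domain, averaged 3385 ± 1013 units at P5 and 9268 ± 3753 units at E19 (SD, n = 3 and 4), a log2 change of -1.39 (SE 0.34, limma adjusted p = 0.00697).

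Igf2, the fetal insulin-like growth factor, read 4201, 2625 and 2096 units at P5, against 10559, 11146, 8332 and 13501 units at E19 in Gsr-WT. All P5 arrays were lower than all E19 arrays. The log2 change was -1.90 (SE 0.40, limma adjusted p = 0.00185). H19, the noncoding neighbour that shares enhancers with Igf2, read 13684, 10178 and 6542 units at P5, against 17530, 18125, 13489 and 20549 units at E19. Its groups overlapped by 1 array, and its log2 change was -0.83 (SE 0.24, limma adjusted p = 0.0210).

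Cdkn1c, an inhibitor of cyclin-dependent kinases, fell by 1.04 (SE 0.22, limma adjusted p = 0.00220), and Grb10, an adaptor that damps insulin and IGF receptor signals, fell by 0.79 on the log2 scale (SE 0.14, limma adjusted p = 0.000343). Mest, a hydrolase-like protein of mesoderm, averaged 8087 ± 1399 units at P5 and 13616 ± 1785 units at E19 (SD, n = 3 and 4), with a change of -0.76 (SE 0.25, limma adjusted p = 0.0427). None of these 3 genes had overlapping groups, but the share of all genes without overlap in this step was not determined. Ndn, which codes for a protein that restrains the cell cycle in neurons, read 4350, 5010 and 6551 units at P5, against 4587, 3507, 2800 and 3570 units at E19. It was higher by 0.55 (SE 0.18, limma adjusted p = 0.0438), although 1 E19 array lay above the lowest P5 array. Peg3, a zinc finger protein, changed by -0.37 and Plagl1, a zinc finger regulator of the other imprinted genes, by -0.45, with limma adjusted p of 0.0669 and 0.132.

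The replicate block gave 6 calls in Gsr-WT, without Mest and Ndn. The count was 5 with the liver level in the fit, where H19, Mest and Ndn lost their calls, and the part of liver RNA in the change was otherwise not tested. Leaving out 1 array gave 5 calls without E19 replicate 4, 5 without P5 air replicate 2 and 4 without P5 air replicate 3, the library with high Cdkn1a. The shares of all genes called in these altered fits were not determined, so the counts have no background.

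In Gsr-KO lungs only Dlk1 was called between P5 air and E19. It read 14245, 2238 and 1000 units at P5, against 8987, 13007, 14339 and 12598 units at E19. A single P5 array, replicate 1, sat among the E19 values, and the other P5 arrays lay far below them. The log2 change was -1.91 (SE 0.51, limma adjusted p = 0.0357). Of all genes, 1.21% were called lower. At an unadjusted p under 0.05, 5 members and 20.6% of all genes passed.

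Without that P5 array, 5 members were called in Gsr-KO. The share of all genes called was not determined for this or the other fits of this paragraph, so their counts have no background. The log2 changes were -2.99 (SE 0.37) for Dlk1, -1.36 (SE 0.42) for Igf2, -1.31 (SE 0.33) for Meg3, -0.95 (SE 0.19) for Cdkn1c and -0.83 (SE 0.26) for H19, with limma adjusted p from 5.72e-06 to 0.0390. Mest and Grb10 then had changes of -0.10 (SE 0.28) and -0.16 (SE 0.16) in Gsr-KO, with limma adjusted p of 0.862 and 0.548. The count was 2 without Gsr-KO E19 replicate 1, and 0 without E19 replicate 3, without P5 air replicate 2 or without P5 air replicate 3. Igf2 at E19 was itself spread in Gsr-KO, at 1733, 5240, 10665 and 10788 units, and the lowest value came from the array with the high 3' to 5' ratio. On the same arrays in that order, the heart and skeletal muscle markers summed to 20633, 19554, 154699 and 153627 units. Whether the ratio or muscle RNA bears on the Igf2 spread was not tested.

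The difference between the genotypes in this step was tested as an interaction, and 0 members were called by limma, where 0.187% of all genes were. At an unadjusted p under 0.05, 2 members and 11.6% of all genes passed. For Grb10 the log2 difference, Gsr-KO minus Gsr-WT, was 0.67 (95% interval 0.28 to 1.07, limma adjusted p = 0.173). For Mest the difference was 0.82 (95% interval 0.09 to 1.55, limma adjusted p = 0.370) and for Dlk1 1.38 (95% interval -0.09 to 2.84, limma adjusted p = 0.454). Without Gsr-KO P5 air replicate 1 the Dlk1 difference was 0.30 (SE 0.49). Without Gsr-KO E19 replicate 3, Grb10 was called in this term, with a limma adjusted p of 0.0475. The plot of changes with age sets both genotypes side by side.

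**Figure D3:**
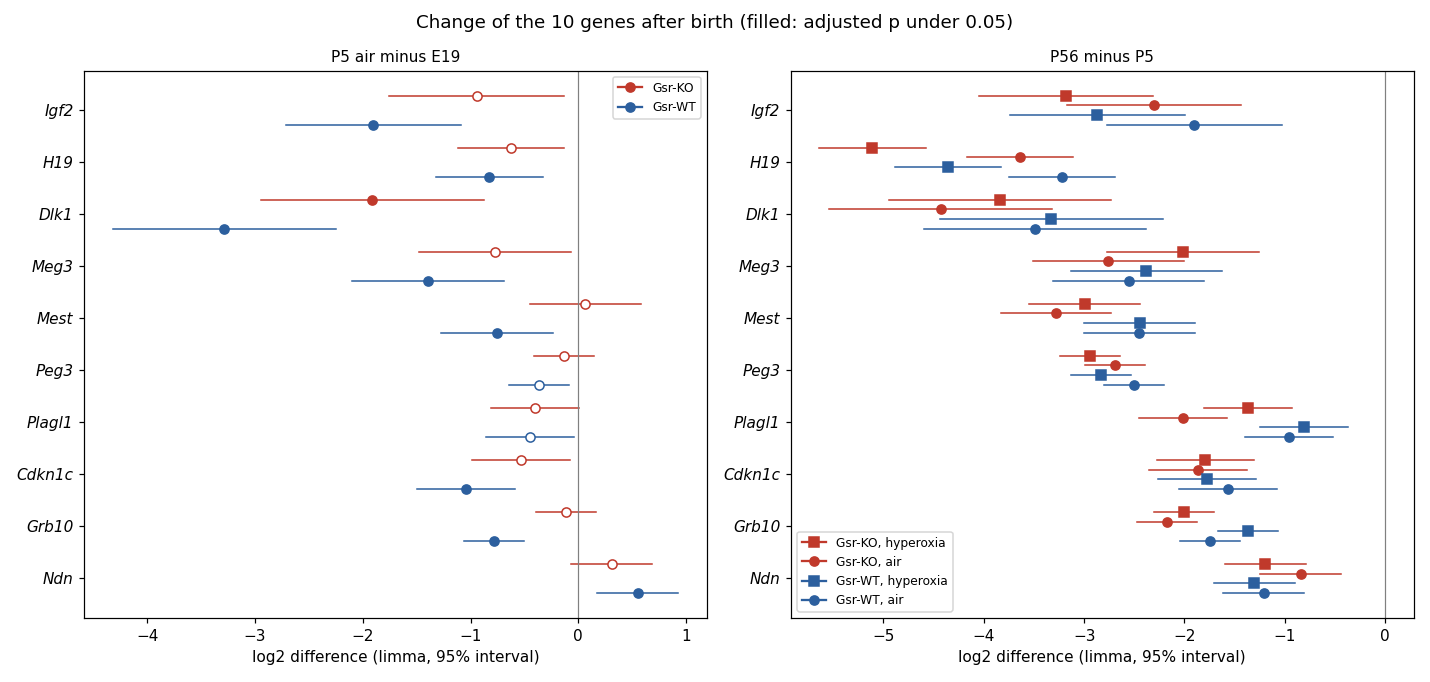
Log2 difference with its 95% interval for each gene between P5 in air and E19 (left, 2 genotypes) and between P56 and P5 (right, 4 combinations of genotype and oxygen). Filled symbols have a limma adjusted p under 0.05: 8 for Gsr-WT and 1 for Gsr-KO on the left, and all on the right.

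At E19 itself, Gsr-KO and Gsr-WT lungs differed in 1 of the 10 genes by the same rule, against 15.2% of all genes, so the members' share was near the background. Grb10 read 7048, 7072, 9795 and 6981 units in Gsr-KO, against 9598, 10648, 9002 and 11974 units in Gsr-WT. Replicate 3 of Gsr-KO lay within the Gsr-WT range and the other Gsr-KO arrays lay below it. The log2 difference was -0.42 (SE 0.13, limma adjusted p = 0.0236). Cdkn1c read 4860, 6073, 4332 and 5594 units in Gsr-KO, against 7033, 8140, 6272 and 8918 units in Gsr-WT, without overlap, with a difference of -0.54 (SE 0.21, limma adjusted p = 0.0757). Other markers also differed at E19. The mitosis markers summed to 7753 to 14524 units in Gsr-KO and to 20808 to 30472 units in Gsr-WT, without overlap. Erythroid markers summed to 6825 to 9409 units in Gsr-KO and to 8253 to 33917 units in Gsr-WT. The part of the mitosis or erythroid markers in this comparison, or in the step from E19 to P5, was not tested. Heart and skeletal muscle markers summed to 19554 to 154699 units in Gsr-KO and to 8201 to 70316 units in Gsr-WT, with overlap. With the muscle level in the fit, Igf2 and Mest, lower in Gsr-KO, were called as well as Grb10. With the liver level in the fit, Grb10 differed by -0.22 (SE 0.17, limma adjusted p = 0.536) and no member was called. The count was also 0 without Gsr-KO E19 replicate 1, Gsr-WT E19 replicate 2 or Gsr-WT E19 replicate 4, and 2 without Gsr-KO E19 replicate 2 or 3. The 15.2% above belongs to the main fit, and the shares of all genes in these altered fits were not determined. Without Gsr-KO E19 replicate 4 the Grb10 call was lost (limma adjusted p = 0.0608) and Igf2 was called in its place, at -1.22 (SE 0.37, limma adjusted p = 0.0286).

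Between P5 and P56 all 10 members fell in each combination of genotype and oxygen, with all P56 arrays of the combination below all its P5 arrays. Of all genes, 26.3% were so placed in Gsr-KO hyperoxia, 25.8% in Gsr-KO air, 20.8% in Gsr-WT hyperoxia and 27.1% in Gsr-WT air. The shares of all genes called lower were 12.4% in Gsr-KO hyperoxia, 14.4% in Gsr-KO air, 10.6% in Gsr-WT hyperoxia and 10.8% in Gsr-WT air. The members' median changes were -2.48, -2.50, -2.41 and -2.18 in that order, against 0.04, 0.00, 0.00 and 0.00 over all genes (log2). Over all P56 and P5 arrays together, 9 of the 10 genes had no overlap between ages. The share of all genes without overlap was not determined for these pooled arrays, so this count has no background. The exception was Plagl1, where Gsr-WT P56 hyperoxia replicate 2, the array with the second-highest 3' to 5' ratio, read 9393 units and the lowest P5 array read 8999 units.

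H19 and Dlk1 had the largest changes, H19 in both hyperoxia groups and Dlk1 in both air groups. In Gsr-KO air the lead of Dlk1 over H19 rested on P5 replicate 1, a library that stood apart. Dlk1 read 14245 units there, against 2238 and 1000 units on the other Gsr-KO P5 air arrays. The P56 signals of H19 were 318, 199 and 268 units in Gsr-KO hyperoxia, against P5 signals of 10880, 9413 and 9097 units, a log2 change of -5.11 (SE 0.26, limma adjusted p = 1.31e-13). In Gsr-KO air it read 862, 776 and 626 units at P56, against 12910, 8075 and 8564 units at P5, a change of -3.64 (SE 0.26). Every P5 array lay far above every P56 array in both oxygen groups. In Gsr-WT the changes were -4.36 in hyperoxia and -3.22 in air (SE 0.26 each).

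Dlk1 changed by -3.84 in Gsr-KO hyperoxia, -4.43 in Gsr-KO air, -3.33 in Gsr-WT hyperoxia and -3.49 in Gsr-WT air (SE 0.54 each). Its P56 signals were 97, 65 and 56 units in Gsr-KO hyperoxia, 211, 90 and 93 units in Gsr-KO air, 25, 30 and 62 units in Gsr-WT hyperoxia and 80, 78 and 45 units in Gsr-WT air. All but 1 lay under the median of all values, so the size of the change moves with the offset added before log2. In Gsr-WT air it was -3.93 with an offset of 1 unit and -2.75 with an offset of 100.4 units. Dlk1 also has a much dimmer probe set, for which the fall from P5 to P56 was called in Gsr-KO air and in none of the other 3 combinations.

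Igf2 changed by -3.18 in Gsr-KO hyperoxia, -2.30 in Gsr-KO air, -2.87 in Gsr-WT hyperoxia and -1.90 in Gsr-WT air (SE 0.42 each). Peg3, which was not called between E19 and P5, then changed by -2.94, -2.69, -2.83 and -2.50 in the same order (SE 0.14 each), with a highest limma adjusted p of 6.88e-12. Mest changed by -2.99, -3.28, -2.45 and -2.45 (SE 0.27 each). Meg3 ranged from -2.76 to -2.02, Grb10 from -2.18 to -1.36 and Cdkn1c from -1.87 to -1.56 over the 4 combinations. Plagl1 ranged from -2.02 to -0.81 and Ndn from -1.31 to -0.84.

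The members have 32 probe sets that passed the filter, and all 32 were lower at P56 than at P5 as means over groups. The 11 of Meg3 ranged from -2.99 to -0.34 and the 3 of Peg3 from -3.32 to -2.74. The 5 of Ndn differed by 0.50 to 0.60 between P5 and E19 and by -1.27 to -1.14 between P56 and P5. The 5 probe sets that did not pass, 3 of Ndn and 2 of Peg3, had mean signals of 3.11 to 42.3 units, and all 5 were slightly higher at P56 than at P5, by 0.01 to 0.47.

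Lung mesenchyme and mitosis markers moved with the same step. The 14 mesenchyme markers summed to 74258 to 93931 units at P56 and to 123522 to 155217 units at P5, all 14 above the median of all values on every array. The 17 mitosis markers summed to 3082 to 4494 units at P56, with 10 to 12 above the median, and to 12731 to 28262 units at P5, with all 17 above it. The part of either in the fall of the members was not tested.

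Whether the fall from P5 to P56 differed by genotype was tested in room air, and 0 members were called by limma, as were 0% of all genes. At an unadjusted p under 0.05, 3 members and 11.5% of all genes passed. For Plagl1 the log2 difference, Gsr-KO minus Gsr-WT, was -1.06 (95% interval -1.68 to -0.44, limma adjusted p = 0.197), and for Mest -0.83 (95% interval -1.61 to -0.05, limma adjusted p = 0.410). For Igf2 the difference was -0.40 (95% interval -1.63 to 0.83) and for H19 -0.42 (95% interval -1.17 to 0.33), so differences of either sign were not excluded.

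Whether it differed by oxygen was tested within each genotype. In Gsr-KO 0 members were called by limma, against 0.0824% of all genes, and 2 members and 4.24% of all genes passed at an unadjusted p under 0.05. In Gsr-WT 0 members were called, as were 0% of all genes, and 1 member and 2.77% of all genes passed at an unadjusted p under 0.05. For H19 the log2 difference, hyperoxia minus air, was -1.47 in Gsr-KO (95% interval -2.22 to -0.72, limma adjusted p = 0.199) and -1.14 in Gsr-WT (95% interval -1.89 to -0.39, limma adjusted p = 0.989). Without the 3 P5 libraries that stood apart, the H19 differences were -1.603 (SE 0.36) in Gsr-KO and -0.86 (SE 0.35) in Gsr-WT, with limma adjusted p of 0.0732 and 0.987.

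In the adult lung, long after the exposure, 1 member was called between the oxygen groups. H19 read 203, 477 and 238 units in Gsr-WT hyperoxia at P56, against 1040, 1177 and 858 units in Gsr-WT air. It was lower on every hyperoxia array, and the groups did not overlap. The ratio of means was 0.298, and the log2 difference was -1.74 (SE 0.26, limma adjusted p = 0.00435). H19 was the only gene of all 13346 called between these groups, which makes 0.00749%.

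In Gsr-KO, H19 read 318, 199 and 268 units in hyperoxia at P56, against 862, 776 and 626 units in air, again without overlap. The ratio of means was 0.347, and the log2 difference was -1.45 (SE 0.26, limma adjusted p = 0.0763). By limma 0 members and 0% of all genes were called in Gsr-KO, and 2 members and 2.73% of all genes passed at an unadjusted p under 0.05. The difference between the genotypes in this response of H19 was 0.29 (95% interval -0.46 to 1.04, limma adjusted p = 0.999), in a term added after the values were seen. In that term 0 members and 0% of all genes were called, and 0 members and 2.47% of all genes passed at an unadjusted p under 0.05.

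Averaged over both genotypes, a comparison also added after the values were seen, H19 was different by -1.595 on the log2 scale, lower in hyperoxia (SE 0.18, limma adjusted p = 3.54e-05), on all 6 hyperoxia arrays against all 6 air arrays. It was the 1 member called, where 0.0525% of all genes were. H19 kept this call in all 29 alternatives, with a highest limma adjusted p of 0.00523. The call in Gsr-WT alone was lost without air replicate 1 (limma adjusted p = 0.0503), without air replicate 2 (0.0902), without hyperoxia replicate 3 (0.0946) and with the compared groups fitted alone (0.666).

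**Figure D4:**
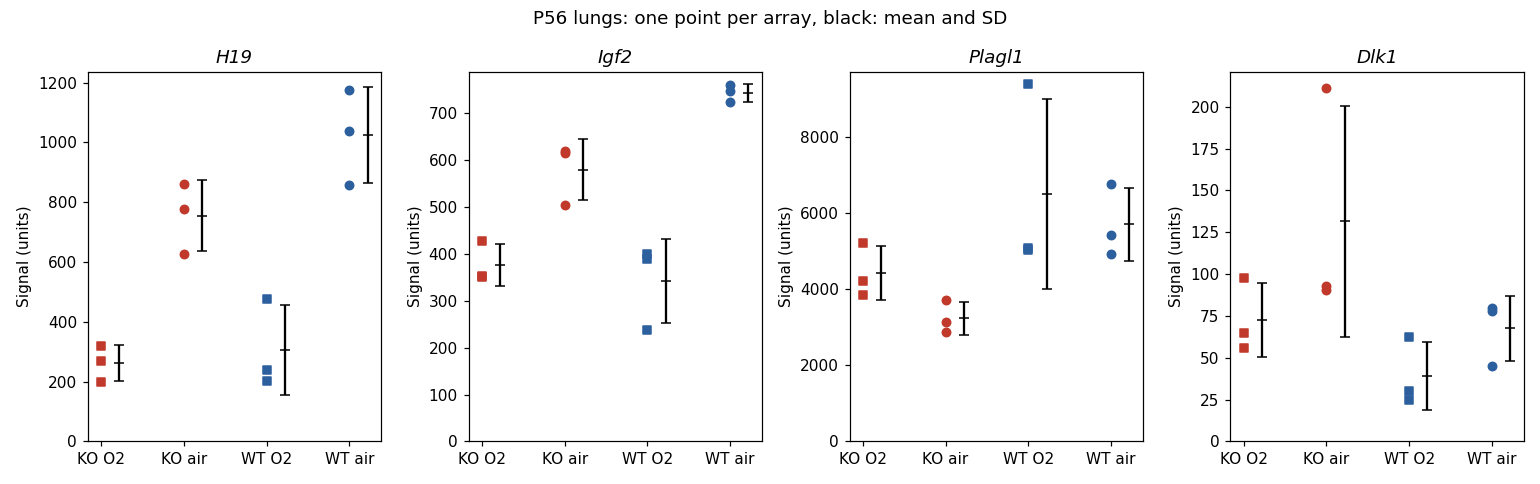
Signal of H19, Igf2, Plagl1 and Dlk1 on each P56 array (points) with the group mean and SD (black, n = 3), for Gsr-KO and Gsr-WT in hyperoxia (O2) and air, on linear axes from 0. All 6 hyperoxia arrays of H19 and of Igf2 lie below all 6 air arrays.

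Igf2 behaved likewise in its values but was not called. It read 427, 352 and 350 units in Gsr-KO hyperoxia, against 619, 615 and 505 units in Gsr-KO air, and 399, 238 and 389 units in Gsr-WT hyperoxia, against 747, 723 and 760 units in Gsr-WT air. The hyperoxia and air arrays did not overlap in either genotype. The log2 differences were -0.59 in Gsr-KO and -1.10 in Gsr-WT (SE 0.42 each), with limma adjusted p of 1 and 0.805. Plagl1 read 5229, 4233 and 3853 units in Gsr-KO hyperoxia, against 2874, 3139 and 3720 units in Gsr-KO air, without overlap and higher in hyperoxia, with a difference of 0.45 (SE 0.21, limma adjusted p = 1). In Gsr-WT the Plagl1 difference was 0.14 (SE 0.21). Mest read 1147, 894 and 1093 units in Gsr-WT hyperoxia, against 1503, 1390 and 1434 units in Gsr-WT air, a difference of -0.46 (SE 0.27), and -0.25 in Gsr-KO. Cdkn1c read 874, 973 and 849 units in Gsr-WT hyperoxia, against 1339, 1124 and 1189 units in Gsr-WT air, a difference of -0.43 (SE 0.24), and -0.15 in Gsr-KO. Neither gene overlapped in Gsr-WT (limma adjusted p = 0.805 for each), and both overlapped in Gsr-KO (limma adjusted p = 1 for each). In all, 3 members did not overlap in Gsr-KO and 4 in Gsr-WT, where 15.7% and 14.6% of all genes did not. Dlk1 differed by -0.61 in Gsr-KO and -0.54 in Gsr-WT (SE 0.54 each), with overlap in both. Meg3, Peg3, Grb10 and Ndn had differences between -0.18 and 0.15 in both genotypes, with intervals that reached from -0.86 to 0.80.

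Markers of other tissues also differed between these P56 groups. The liver markers summed to 1470 to 1622 units in Gsr-KO hyperoxia and 1800 to 2562 units in Gsr-KO air, and to 1316 to 2504 units in Gsr-WT hyperoxia and 2558 to 5166 units in Gsr-WT air, with 4 to 9 of 20 above the median of all values. The heart and skeletal muscle markers summed to 12729 to 15374 units in Gsr-KO hyperoxia and 28581 to 30929 units in Gsr-KO air, with 9 to 13 of 20 above the median, and their sums overlapped in Gsr-WT, at 10087 to 18572 units in hyperoxia and 7457 to 32471 units in air. With both levels in the fit, the H19 difference was -1.23 in Gsr-KO (SE 0.22, limma adjusted p = 0.0808) and -1.57 in Gsr-WT (SE 0.22, limma adjusted p = 0.00229). Without the Gsr-WT hyperoxia array of high 3' to 5' ratio, which had the highest H19 of its group, the Gsr-WT difference was -2.09 (SE 0.25, limma adjusted p = 0.000112).

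At P5, at the end of the exposure, 0 members were called between hyperoxia and air by limma in either genotype, and 1 passed at an unadjusted p under 0.05 in each, where 5.85% of all genes passed in Gsr-KO and 3.1% in Gsr-WT. The shares of all genes called were 0.337% in Gsr-KO and 0.00749% in Gsr-WT. H19 averaged 9797 ± 952 units in hyperoxia and 9850 ± 2662 units in air in Gsr-KO, and 6385 ± 331 units in hyperoxia and 10134 ± 3571 units in air in Gsr-WT (SD, n = 3 each). The interval of the H19 difference was -0.51 to 0.55 in Gsr-KO and -1.13 to -0.07 in Gsr-WT. For Dlk1 the Gsr-KO difference of -1.20 (SE 0.54) rested on air replicate 1, and without it the difference was -0.13 (SE 0.39). Without all 3 P5 libraries that stood apart, 0 members were called by limma in either genotype. At an unadjusted p under 0.05, 0 in Gsr-KO and 2 in Gsr-WT passed. The share of all genes that passed in this reduced fit was not determined, so these counts have no background. In the reduced fit no conclusion is drawn from them. H19 then differed by 0.15 (SE 0.28) in Gsr-KO and -0.89 (SE 0.26) in Gsr-WT, and Dlk1 by -0.32 (SE 0.37) in Gsr-KO and -1.15 (SE 0.34) in Gsr-WT, with limma adjusted p of 0.274 for H19 and 0.279 for Dlk1 in Gsr-WT. The genotype-by-oxygen term at P5 called 0 members and 0.135% of all genes, and 0 members and 2.32% of all genes passed at an unadjusted p under 0.05.

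**Figure D5:**
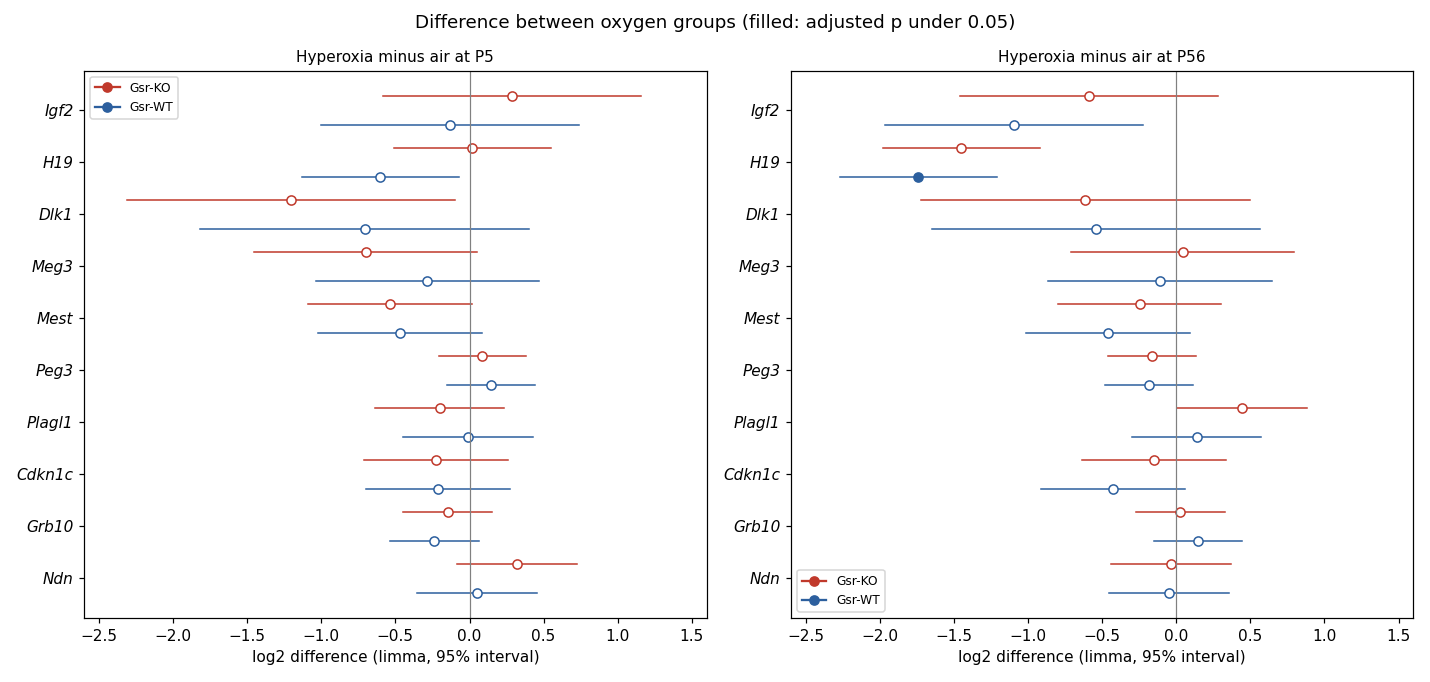
Log2 difference between hyperoxia and air with its 95% interval for each gene at P5 (left) and at P56 (right), for Gsr-KO and Gsr-WT. The 1 filled symbol, H19 in Gsr-WT at P56, has a limma adjusted p of 0.00435.

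After birth 0 of the 10 members were called between Gsr-KO and Gsr-WT by limma in any of the 4 postnatal conditions. At an unadjusted p under 0.05 the counts were 3 in P5 hyperoxia, 1 in P5 air, 2 in P56 hyperoxia and 1 in P56 air, where 3.02%, 5.55%, 8.7% and 11.9% of all genes passed in that order. The P56 air count is thus at the background. The shares of all genes called after adjustment were 0.187%, 0.015%, 0.03% and 0.0599% in that order.

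In P5 hyperoxia 6 genes were higher on every Gsr-KO array than on every Gsr-WT array, namely Dlk1, H19, Igf2, Peg3, Mest and Grb10, none of them called. Of all genes, 9.9% were so placed. Over 23 alternatives the difference kept its sign in all for Dlk1, H19 and Grb10. It did so in 22 for Peg3, 21 for Mest and 20 for Igf2. The lowest log2 differences of these 3 genes over the alternatives were -0.203, -0.108 and -0.363 in that order. Dlk1 read 1789, 1105 and 1295 units in Gsr-KO, against 559, 620 and 655 units in Gsr-WT, and H19 read 10880, 9413 and 9097 units, against 6131, 6265 and 6759 units. The log2 differences were 1.13 (SE 0.54) for Dlk1 and 0.61 (SE 0.26) for H19, both with a limma adjusted p of 1. Without the 3 P5 libraries that stood apart they were 0.94 (SE 0.34) and 0.54 (SE 0.26), again with a limma adjusted p of 1. In the same groups the muscle markers summed to 30180 to 39305 units in Gsr-KO, with 19 to 20 of 20 above the median, and to 10505 to 23498 units in Gsr-WT, with 8 to 17 above it. Squamous epithelium markers summed to 6722 to 11636 units in Gsr-KO, with 9 of 9 above the median, and to 486 to 571 units in Gsr-WT, with 1 or 2 above it. Liver markers summed to 674 to 1034 units in Gsr-KO and to 4691 to 13462 units in Gsr-WT. The part of squamous RNA in these values was not tested.

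In P56 air 7 genes did not overlap between the genotypes, of which Dlk1 and Meg3 were higher and Igf2, Plagl1, Mest, Cdkn1c and Grb10 lower in Gsr-KO, none of them called. Of all genes, 34.5% did not overlap. Plagl1 read 2874, 3139 and 3720 units in Gsr-KO, against 5434, 4923 and 6779 units in Gsr-WT, a log2 difference of -0.81 (SE 0.21, limma adjusted p = 0.1). In P56 hyperoxia 0 members were apart between the genotypes, where 16.8% of all genes were, and Plagl1 differed by -0.50 (SE 0.21, limma adjusted p = 0.524).

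In the order of the 10 group means, the P5, E19 and P56 groups formed separate blocks for every gene, with P5 at the top for Ndn and E19 at the top for the others. Of the 9 neighbouring pairs in that order, 1 to 3 per gene did not overlap. For every gene these included the step to the highest P56 group. The share of all genes with such gaps was not determined, so these counts have no background. The other neighbours overlapped, which by itself is no test of a difference. Grb10 in Gsr-WT and Gsr-KO at E19 was such an overlapping pair, although its difference was called above.

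Of 24 other imprinted genes tested out of 32, between P5 and P56 8 were called lower and 3 higher in Gsr-KO hyperoxia, 9 lower and 4 higher in Gsr-KO air, 9 lower and 5 higher in Gsr-WT hyperoxia and 8 lower and 2 higher in Gsr-WT air. Against these and the following list counts, the shares of all genes called lower are those given above, and 16.2%, 15.2%, 13.4% and 12.1% of all genes were called higher, in the same order of groups. The list's median change was between -0.38 and -0.19, against 0.00 to 0.04 over all genes. Rian, a noncoding RNA beside Meg3, changed by -1.59, -2.61, -2.69 and -2.52 in that order. Nnat, a small membrane protein, changed by -2.58 in Gsr-KO hyperoxia and by -1.54 in Gsr-WT air. Dcn, which codes for the matrix protein decorin and is imprinted in placenta, rose by 1.61 in Gsr-KO air. The counts of higher genes, 2 to 5 of 24, are near that background.

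Among 17 tested genes of the IGF system, 7 were lower and 1 higher in Gsr-KO hyperoxia, 7 and 4 in Gsr-KO air, 7 and 3 in Gsr-WT hyperoxia and 6 and 2 in Gsr-WT air. Igf1, the main postnatal insulin-like growth factor, changed by -2.05, -1.96, -1.35 and -1.83 in that order. Pappa2, a protease that frees IGF from its binding proteins, changed by -3.20, -2.26, -2.81 and -2.74. Igfbp6, which prefers IGF2 as its ligand, rose, by 2.39, 1.99, 2.32 and 2.46. The list's median was between -0.64 and -0.26.

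Of 9 fetal growth regulators tested out of 14, 7 were lower in Gsr-KO hyperoxia, 8 in Gsr-KO air, 7 in Gsr-WT hyperoxia and 7 in Gsr-WT air, with none higher and medians of -1.29 to -1.07. Sox11, a transcription factor of immature tissues, changed by -3.56, -2.86, -2.84 and -2.49, and Mycn, a growth-promoting transcription factor, by -1.46, -1.46, -1.45 and -1.54. Of 11 tested genes that write or read imprints, 5, 5, 5 and 7 were lower and none higher. Uhrf1, which guides maintenance of DNA methylation, changed by -2.93, -2.21, -2.41 and -3.00. Of 13 genes around the G1 block set by Cdkn1c, 7 were lower and 1 higher in Gsr-KO hyperoxia, and 5, 6 and 4 were lower and none higher in the other groups. Ccne1, a cyclin of the step into DNA replication, changed by -1.61, -1.07, -1.603 and -2.26. Of 13 NOTCH genes, 1 was called in Gsr-KO hyperoxia, the target gene Hey1, higher by 0.73. In Gsr-WT hyperoxia 1 was lower and 2 were higher.

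Between P5 air and E19 in Gsr-KO, where 1.21% of all genes were called lower and 2.22% higher, 0 other imprinted genes were called and 0 genes of any list were lower. Called higher were Igfbp2 and Pappa2 of the IGF system and 1 gene each of 4 lists, namely Sox11 by 0.96, Notch1 by 0.82, Uhrf1 by 1.21 and the G1 inhibitor Cdkn2c by 0.90. In Gsr-WT, where 6.25% of all genes were called lower and 8.34% higher, 4 other imprinted genes were lower and none higher, 2 IGF genes lower and 4 higher, 2 fetal regulators lower and 2 higher, 1 NOTCH gene lower and 4 higher and 3 G1 genes higher, while no imprint writer or reader was called. Mirg, a noncoding RNA of the Meg3 domain, fell by 1.89 and Igfbp2, an IGF binding protein, rose by 2.26. In the test of the difference between genotypes in this step, Igfbp7 was the 1 list gene called, at -0.94 (SE 0.18, limma adjusted p = 0.0123).

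The genes most like the members' average pattern were sought among 5427 others whose 10 group means spanned at least 1 on the log2 scale. Agtr2, the type 2 angiotensin receptor, came first with a Pearson correlation of 0.998 over the 10 group means, followed by Zdhhc15 (0.994), Frem2 (0.989), Tcf21 (0.988) and Mettl21e (0.988). The members themselves had correlations of 0.785 for Ndn and 0.940 to 0.992 for the others. These values describe 10 points that share the 3 ages. Agtr2 had medians of 460 units at E19, 259 units at P5 and 13.2 units at P56, and Tcf21, a transcription factor of lung mesenchyme, had 16046, 12656 and 5423 units.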

How the data were processed

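Total RNA from 32 mouse lungs was measured on Affymetrix Mouse 430_2 arrays. The deposited values are linear signal intensities of 45101 probe sets that the authors made with MAS5, per the submitters' processing notes, whose version is not given in the sources used here. The mean after trimming 2% of the values at each end was the same on every array, and no column was left unmapped.

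An offset of 26.3 units, the 25th percentile of all intensities, was added before log2. Control probe sets, those with several genes or none in the platform annotation, and those that exceeded the overall median signal, 100.4 units, on fewer than 3 arrays were left out. H19 was kept although its only probe set also names miR-675, which lies within it. One probe set per gene, the one with the highest mean, gave 13346 genes.

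All arrays entered 1 limma fit of 10 group means (limma 3.58.1, R 4.3.3, 22 residual degrees of freedom, eBayes with trend), and p-values were adjusted by Benjamini-Hochberg across the genes, with calls under 0.05. Changes are log2 differences of signal plus offset, which understates the change of dim genes. Intervals are 95% intervals of the fit. The procedure was tested on simulated data. Tables and figures used Python 3.11.15, pandas 2.3.3 and matplotlib 3.10.9.

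The 10 members and the gene lists were chosen with earlier results of these data known, and 2 of the 22 comparisons were added after the values were seen. Named besides the members are at most 4 called genes per list and comparison, by size of change, and the 5 genes closest to the members' mean pattern. Of 28 same-numbered pairs, 9 had a correlation of deviations over 0.1 (range -0.407 to 0.272). In 1 of 9 group pairs, Gsr-KO and Gsr-WT in P5 hyperoxia, all 3 pairs did (0.253, 0.107 and 0.167), and there the replicate block left the count of calls at 0. In the others the numbers were not taken as pairs. Alternatives were the offset, scaling, filter, probe set, variance prior, array weights, replicate block, the compared groups alone, marker levels as covariates, and arrays left out. No 2 arrays held identical values.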

Additional observations from a re-analysis of the deposited data

Results flagged for a closer look

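Among 20 groups of 4 arrays tested for a value that stands apart, chance gives about 1 in 20, and 2 were found, both in Gsr-KO E19. Mest read 4410.9 units on replicate 1, against 12355 to 13882 units on the other 3 arrays, a gap of 0.839 of the range. That array also had the highest 3' to 5' ratio, 4.37 on the log2 scale, and whether the ratio bears on the value was not tested. Grb10 read 9794.9 units on replicate 3, against 6981 to 7072 units on the others, a gap of 0.968 of the range, and leaving this array out brought the Grb10 difference between genotypes in the step from E19 to P5 past the threshold.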

How the results depend on the processing

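Each of the 10 members stayed lower at P56 than at P5 in all 4 combinations of genotype and oxygen under every alternative, with 10 called when any 1 array was left out. Calls there were lost for Dlk1, Igf2, Plagl1 and Grb10 in some alternatives, mostly with the next-brightest probe set. No result changed sign among called values. The cause of the shifts that follow was not tested, except that left-out arrays mean fewer samples. The counts of members that follow are given without the share of all genes called under the same setting. They therefore cannot be set against a background.

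Counts of members called between P5 air and E19 in Gsr-KO were 0 with quantile normalization, the next-brightest probe set, the compared groups alone, the liver level, or liver and muscle levels, 3 without the 2 arrays of high 3' to 5' ratio, 5 without the 3 P5 arrays that stood apart (Gsr-KO air replicate 1, Gsr-KO hyperoxia replicate 1 and Gsr-WT air replicate 3) and 7 with array weights, with 0 to 5 when 1 array was left out. In Gsr-WT they were 5 with the liver level and 5 without the 3 P5 arrays, with 4 to 7 when 1 array was left out. Between Gsr-KO and Gsr-WT at E19 they were 0 with median centring, the groups alone, array weights, the liver level or both levels, 2 with quantile normalization, the next-brightest probe set or without the 3 P5 arrays, and 3 with the muscle level, with 0 to 2 when 1 array was left out. The replicate block gave 2 there and 6 between P5 air and E19 in Gsr-WT, where Mest and Ndn lost their calls, and left the other counts as they were.

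Array weights gave 4 calls between genotypes for hyperoxia at P5, 5 for hyperoxia at P56 and 3 for air at P56. They gave 3 between oxygen groups in Gsr-KO at P5, 2 in Gsr-KO at P56, 5 in Gsr-WT at P5, 5 in Gsr-WT at P56 and 6 in the P56 average. They gave 3 for genotype by maturation, 3 and 4 for oxygen by maturation in Gsr-KO and Gsr-WT, and 2 for genotype by oxygen at P5. The groups alone gave 2 between genotypes in P5 hyperoxia, 2 in P56 air, 1 between oxygen groups in Gsr-KO at P56, 0 in Gsr-WT at P56, 2 in the P56 average, 1 for genotype by maturation and 1 for oxygen by maturation in Gsr-KO. Without the 2 arrays of high ratio the count was 1 between genotypes in P56 air, between oxygen groups in Gsr-KO at P56, for genotype by maturation and for oxygen by maturation in Gsr-KO. Between oxygen groups in Gsr-KO at P56 it was also 1 with the offset at the median, every probe set on its own or without the 3 P5 arrays. Leaving out 1 array gave 0 to 1 between oxygen groups in Gsr-WT at P56 and 0 to 1 for genotype by birth.

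Median centring moved the median of all genes by over 0.1 in 10 of 22 comparisons (-0.194 to 0.281) and quantile normalization in 1. The share of calls that were lower was 47.7% with quantile normalization and 76.2% with centring, against 35.4%, for P5 air against E19 in Gsr-KO, and 40.0% and 17.7%, against 54.4%, between genotypes at E19. With centring it was 63.1%, against 48.5%, for P56 against P5 in Gsr-KO air, and 25.7%, against 44.3%, in Gsr-WT hyperoxia. Dim signals limit Dlk1 at P56.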
